A study of Mus musculus with 56 samples.

Results

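The probes described here read 3540 regions of the mouse genome that the array names by coordinates alone, taken here as candidates for intergenic long noncoding RNA. Their place relative to genes was not analysed here. They were taken as every non-control probe whose identifier in the scanner files is a chromosome, a start, an end and the suffix F or R, which gave 16181 of the 55681 probes of the array (29.1%). No measured value was used to choose them. The suffix is read here as the forward or reverse strand of the genome, and coordinates are those of the files, on mm9. Of the regions, 1067 had probes on both strands, 1251 on the forward strand only and 1222 on the reverse strand only, with a median of 3 probes per region and strand. Region length ran from 62 to 7128487 bases with a median of 7316, and 2104 of the 4607 combinations of region and strand overlapped another on the same strand, so that neighbouring regions are not independent.

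Long intergenic noncoding RNAs are transcribed between protein-coding genes, and many are capped, spliced and polyadenylated like mRNA without encoding a protein. As a class they are known for low levels and for expression limited to few tissues. A region probe measures RNA at 1 stretch of a region whose exons were often unknown when the array was designed. A probe without signal may therefore lie in an intron or outside the transcript, and several probes of 1 region are separate readings of what may be 1 RNA.

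RNA came from random sections of 3 tissues (lung, liver, forestomach) taken from male MutaMouse adults of about 14 weeks, a transgenic strain that carries lacZ as a mutation reporter in all groups. For 28 days all mice were gavaged with olive oil, which for D0 was the vehicle alone and for the other groups carried chrysene, one of the polycyclic aromatic hydrocarbons. The daily dose was 17.5 mg/kg-bw in D1, 50 in D2 and 150 in D3, and mice were killed 72 hours after the final gavage. Lung had 5, 5, 3 and 5 mice in D0 to D3, and liver and forestomach had 5, 5, 4 and 5. Each of the 56 arrays compared 1 sample in Cy5 with 1 reference RNA pooled from mouse cell lines in Cy3, without dye swap, and the value used is the log2 ratio of Cy5 over Cy3.

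The labelled tissues were checked with marker genes. All 5 lung and all 5 liver markers were well above background on every array of their tissue, and so were the 5 squamous markers in forestomach. The lists were not exclusive to their tissues. In forestomach, Scgb1a1 was detected on all 19 arrays (D0 mean 4.75), Cldn18 on 10, and Sftpc and Ager on none. The liver markers were detected on 11 to 15 forestomach arrays. Cyp2e1, Krt14 and Lor were detected on all 18 lung arrays, and the other liver and squamous markers on 0 to 7. Forestomach samples also held glandular stomach RNA in uneven amounts: the mean log2 ratio of 5 glandular markers ran from 0.40 to 6.86 over the 19 arrays. It differed between dose groups, with medians of 5.56 in D0, 1.49 in D1, 5.45 in D2 and 2.08 in D3. In lung, D3 mice 17 and 19 stood apart: the mean of 5 skeletal muscle markers was 5.47 and 5.74 and that of the 5 squamous markers 5.24 and 5.75, whereas no other lung array exceeded 0.49 and -0.33. Tissues were hybridised on different slides, so tissue and slide cannot be told apart. Because the samples are bulk tissue, fewer cells of a type and less RNA per cell cannot be told apart either.

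Region probes were detected far less often than the rest of the array in each tissue. A probe counts as detected where the scanner software flagged its Cy5 signal as well above background. In lung, 25.3% to 34.2% of region probes were detected per array, with a median of 30.9%. The shares in liver ran from 12.4% to 24.5% with a median of 17.8%, and those in forestomach from 3.42% to 27.5% with a median of 10.0%. Every lung array was above every liver array, and the lowest lung arrays overlapped the highest forestomach arrays, which lay on slide 3 (15.4% to 27.5%, against 3.42% to 10.6% on slides 1 and 2).

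Compared with all other non-control probes of the same array, the share was lower by 30.3 percentage points in lung (difference -30.3 ± 1.13, SD, n = 18), by 29.7 points in liver (-29.7 ± 0.35, n = 19) and by 29.9 points in forestomach (-29.9 ± 3.52, n = 19). Each array showed this direction. The size depends on how detection is set: with a probe counted where it exceeded the 95th percentile of the negative controls, 52.0% to 69.7% of region probes were detected on lung arrays and the difference was -17.9 points in lung, -22.0 in liver and -26.5 in forestomach. A two-sided permutation test over the paired differences gave an adjusted p of 3e-05 in each tissue, with a raw p of 2e-05, the smallest that 100000 resamples can give. Other noncoding transcripts lay between: probes for RefSeq noncoding RNA were detected at medians of 45.0%, 31.2% and 25.7% in lung, liver and forestomach, and probes for RefSeq mRNA at 69.8%, 55.9% and 49.9%. Of all region probes, 9731 (60.1%) were detected on 3 or more arrays in no tissue and 3029 (18.7%) in all 3 tissues. On 3 or more lung arrays but on fewer in both other tissues were 1461 probes, against 370 for liver and 197 for forestomach.

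Reverse-strand probes were detected more often than forward-strand probes, and most clearly in lung. The forward minus reverse difference was -5.93 ± 0.43 percentage points in lung (SD, n = 18), -0.91 ± 0.57 in liver (n = 19) and -1.61 ± 1.92 in forestomach (n = 19). Reverse exceeded forward on 18 of 18, 18 of 19 and 15 of 19 arrays, and the adjusted p of the permutation test was 3e-05, 4.8e-05 and 0.00096. Under the negative control limit the difference was -5.10, -1.85 and -2.71 points. All arrays read the same probes, so these p-values do not measure the spread over regions. By chromosome, the reverse excess in lung ran from 0.66 points on chromosome 8 to 23.1 on chromosome 16. Within slides, the reverse excess was 5.08 to 6.76 points on the lung arrays of all 3 slides. In forestomach it was 2.58 to 4.72 points on slide 3 but only -0.43 to 1.40 points on slides 1 and 2, where few probes were detected.

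In lung, the excess was mostly in regions with probes on both strands. There, reverse minus forward was 7.70 to 10.3 points over the 18 lung arrays, whereas regions covered on 1 strand gave 0.33 to 1.79 points. In liver, forward minus reverse in both-strand regions was -1.34 ± 1.01 points (SD, n = 19). It ran from -3.15 to 0.75 and was below 0 on 18 of 19 arrays. In forestomach, both-strand regions had reverse above forward on only 11 of 19 arrays (7 of 7 on slide 3, 4 of 5 on slide 1 and 0 of 7 on slide 2), and single-strand regions on 15 of 19. The reference RNA in Cy3 showed the same order. In the both-strand regions its reverse share was higher on all 56 arrays, by 6.55 to 8.82 points on lung arrays, 6.90 to 9.63 on liver arrays and 8.24 to 10.3 on forestomach arrays. In single-strand regions of the reference the reverse minus forward difference was instead between -2.54 and -0.52 points over all arrays. The reverse excess in both-strand regions was thus also present in the reference RNA, and its cause was not tested. By length, lung detection on the forward and reverse strand was 31.4% and 31.2% in regions of up to 2 kb and 34.3% and 32.9% at 2 to 5 kb. The reverse strand was higher in the longer classes, with 25.5% and 37.0% at 5 to 10 kb, 26.6% and 34.3% at 10 to 20 kb, 25.8% and 31.9% at 20 to 50 kb and 26.6% and 33.9% above 50 kb.

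**Figure D1:**
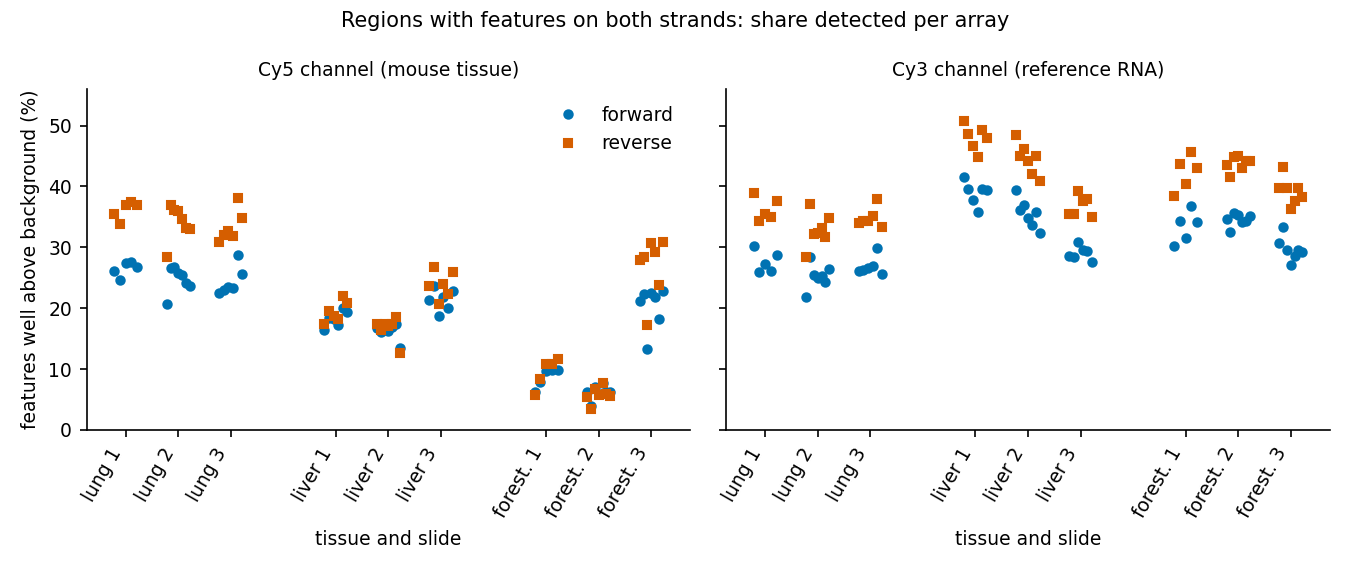
Share of forward (circles) and reverse (squares) region probes well above background on each array, in percent, for the 1067 regions with probes on both strands, grouped by tissue and slide, in the sample channel (left) and the reference channel (right). Reverse lies 7.70 to 10.3 points above forward on every lung array and 6.55 to 10.3 points above it in the reference channel of all 56 arrays, while the strands nearly meet on slides 1 and 2 of forestomach.

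Some regions were read on 1 strand alone. In lung, 30 both-strand regions had all probes of 1 strand detected on all 18 arrays and all probes of the other strand on none, 18 of them reverse and 12 forward. Liver had 23 such regions (9 reverse, 14 forward) and forestomach 5 (1 reverse, 4 forward). With 5 probes on each strand, chr15:68161768-68193518 was detected by every reverse probe on all lung and liver arrays and by no forward probe, and chr9:14460976-14488051 by every forward probe in both tissues and by no reverse probe. In lung, chr1:175654606-175672031, chr5:37051650-37110575, chr7:88131123-88136898 and chr16:4585697-4594022 had 5 of 5 reverse and 0 of 5 forward probes detected on all 18 arrays, and chr14:77511189-77522852 showed the opposite. In liver, chr7:128341797-128414692 had 5 of 5 reverse and 0 of 5 forward probes detected on all 19 arrays. These regions were picked after their values were seen.

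Vehicle mice were used to compare tissues without treatment, by limma on the 15 D0 arrays. A probe was called at an adjusted p of at most 0.05 and a fold of at least 1.5. It was tested where it was detected on at least 3 D0 arrays of either tissue compared. A probe detected in only 1 of these tissues thus entered through that tissue, so shares by direction and by strand can follow detection. Between liver and lung, 4834 region probes were tested, of which 916 were higher in liver (18.9%) and 800 lower (16.5%), against 22.9% and 27.8% of all 29103 probes tested. Between lung and forestomach, 793 of 4555 region probes were higher in lung (17.4%) and 482 lower (10.6%), against 22% and 18.9% of all probes. Between forestomach and liver, 314 of 2934 were higher in forestomach and 737 lower (25.1%), against 24.4% and 24.3% of all probes.

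The share of region probes called was thus below that of the array in each comparison and direction except lower in forestomach than in liver. The median log2 difference of the region probes was 0.05 for liver minus lung, 0.08 for lung minus forestomach and -0.27 for forestomach minus liver, beside -0.05, 0.04 and -0.06 over all probes tested. The balance of directions depends on the normalization. With each array centred on its median in place of LOWESS, 197 of 1828 called region probes were higher in liver than in lung, 1925 of 1958 were higher in lung than in forestomach and 61 of 387 were higher in forestomach than in liver, while the median of all probes moved to -0.77, 1.19 and -0.40.

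By strand, forward probes were called higher in liver than in lung in 22.9% of 2227 cases and lower in 12.8%. Reverse probes showed the opposite order, with 15.6% of 2607 higher and 19.8% lower. Between forestomach and liver the strands were closer, with 10.5% of forward probes higher and 26.6% lower and 10.9% and 23.7% of reverse probes. Differences between strands were not tested, since probes of 1 region are not independent.

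Past both limits over both other tissues were 514 of 2909 region probes for liver (17.7%), 559 of 4530 for lung (12.3%) and 167 of 2630 for forestomach (6.35%), against 18.1%, 16.4% and 10.8% of all probes tested in both comparisons. After asking that all D0 arrays of the tissue lie above all others and that the probe be detected on each of them, 464 remained for liver (362 combinations of region and strand), 482 for lung (255) and 69 for forestomach (50). These are 16.0%, 10.6% and 2.62% of the region probes tested, against 16.1%, 14.0% and 6.17% of all probes. By strand, these were 312 reverse and 170 forward probes for lung, 216 and 248 for liver and 34 and 35 for forestomach, with no test, since probes of 1 region are not independent. The filter required detection, and lung arrays detected reverse probes more often, so these counts can restate detection. Shares by strand were not computed for this filter. The 4 leading probes of each tissue are described next; they were chosen by these contrasts, so their differences are descriptive.

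In liver, the leading probe was A_30_P01021733 at chr13:28537223-28539860, reverse strand. Its log2 ratios in D0 mice 1 to 5 were 8.60, 7.84, 8.05, 8.09 and 8.27 in liver, and between -0.13 and 0.38 in the other tissues. It was well above background on no D0 array of lung or forestomach, nor in the reference on any D0 array. On the Cy5 signal alone, liver was at least 135-fold higher than lung and at least 133-fold higher than forestomach. Here and below, such a bound sets the mean of the bright tissue against the dimmest detected signal of each dim array and can carry dye bias. The pattern rested on 1 probe of the 3 in this region. A_30_P01029325 was detected on no liver array of D0 and A_30_P01032874 stood at a mean of 0.83 in liver, -0.21 in lung and 0.21 in forestomach.

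The next liver region was different, because all of its probes showed it. A_30_P01030527 (chr6:40693617-40720167, forward) gave 6.49, 6.35, 6.75, 6.52 and 6.76 in liver and 0.30 ± 0.12 in lung and -0.02 ± 0.15 in forestomach (SD, n = 5 each). Every liver value lay above every value of the other tissues. The other 4 probes of this region and strand had liver means of 6.10, 5.78, 3.44 and 1.88, and none exceeded a mean of 0.71 in another tissue. A_30_P01021982 (chr6:40699474-40719122, forward), whose region lies within the former, gave 6.15 ± 0.10 in liver against 0.29 ± 0.18 in lung and 0.08 ± 0.24 in forestomach, and its only region-mate 5.85 in liver. As these regions overlap, the 7 probes are not readings of separate stretches, and where each probe lies was not analysed. The fourth liver probe, A_30_P01032682 (chr11:117792051-117811334, reverse), was 5.66 ± 0.21 in liver, 0.56 ± 0.10 in lung and 0.42 ± 0.45 in forestomach, and neither of its 2 region-mates shared this.

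In lung, A_30_P01017818 (chr16:11008534-11013759, forward) stood highest with 6.36, 5.80, 5.70, 6.13 and 5.53 in mice 1 to 5. It was 0.19 ± 0.06 in liver and -0.13 ± 0.14 in forestomach, and its 2 region-mates were detected on no D0 array of any tissue. A_30_P01026656 (chr8:93337794-93348869, reverse) was 4.20, 4.11, 4.39, 4.31 and 4.69 in lung. It was not well above background on any D0 array of liver or forestomach, which put lung at least 17.6-fold above liver and at least 16.9-fold above forestomach. Both region-mates of this probe agreed, with lung means of 4.01 and 3.39 and at most 0.23 in the other tissues.

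A_30_P01027066 (chr16:4867322-4874772, forward) came from a region with 10 probes on that strand. It was 2.42, 2.54, 3.01, 2.44 and 2.70 in lung and was well above background on no D0 array of liver or forestomach. Of the 10 probes, 7 were detected on all 5 lung arrays of D0 and 4 exceeded both other tissues by a log2 difference of at least 1, with lung means of 2.62, 2.07, 1.78 and 1.71. A_30_P01018239 (chr10:81069014-81083448, forward) was 2.87 ± 0.20 in lung (SD, n = 5) and likewise not well above background on any D0 array of the other tissues, while its 2 region-mates were detected on no D0 array at all.

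Forestomach probes varied more between mice. A_30_P01020131 (chr17:56687541-56694631, reverse) gave 7.36, 5.74, 5.18, 4.75 and 7.17 in forestomach of mice 1 to 5, between -0.04 and 0.27 in liver and between 0.11 and 1.28 in lung. It was at least 40.4-fold above liver, where no D0 array was well above background. None of its 4 region-mates shared the pattern, with forestomach means of 0.08 to 0.26. A_30_P01020627 (chr3:87757295-87774970, forward) gave 4.20, 4.28, 3.08, 3.90 and 4.29, and all 5 probes of its region were higher in forestomach than in both other tissues by at least 1 on the log2 scale. For A_30_P01025870 (chr2:180161459-180189542, reverse), which gave 4.62 ± 1.01, neither region-mate was detected on a forestomach array of D0.

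A_30_P01018914 (chr9:78107225-78118850, forward) ranged most widely, with 3.94, 7.00, 6.72, 3.05 and 5.44 in forestomach against 0.35 ± 0.31 in liver and -2.26 ± 0.20 in lung. Its lowest values were in mice 1 and 4. The glandular stomach markers stood at 1.91, 6.71, 5.94, 1.48 and 5.56 in the same 5 samples and were lowest in the same 2 mice. Their part in this probe's level was not tested. A second probe of the region, A_30_P01028766, had a forestomach mean of 5.54, whereas the other 3 of the 5 were detected on no forestomach array of D0, at means of 0.02 to 0.10.

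**Figure D2:**
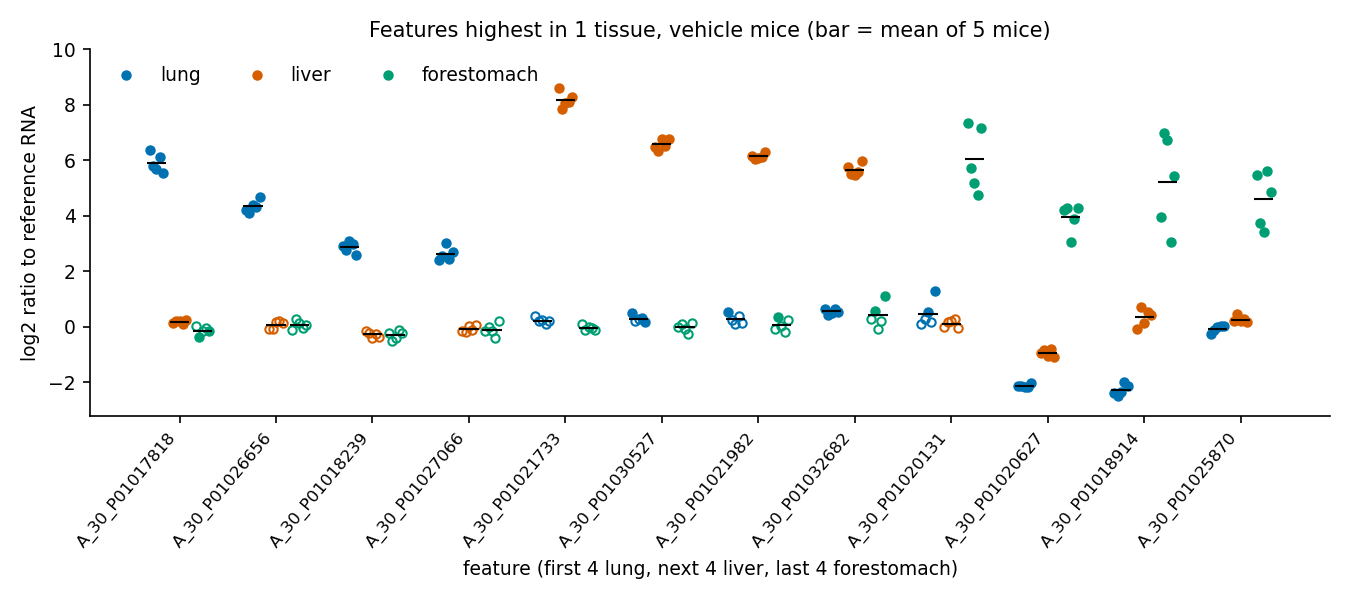
Log2 ratio to the reference RNA of the 4 leading region probes per tissue in vehicle mice. Points are mice (filled, Cy5 well above background; open, not), colours are tissues and bars are means of 5 mice; in each probe the 5 values of its tissue lie above all values of the other tissues, and forestomach values spread most, from 3.05 to 7.00 for A_30_P01018914.

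Within a region, probes often disagreed. Of the 703 combinations of region and strand with 3 or more probes tested between liver and lung, 265 had no call, 145 had all probes called one way (51 higher and 94 lower in liver), 275 had some probes called one way and 18 had calls in both directions. For lung against forestomach the figures were 315, 122, 227 and 10 of 674, and for forestomach against liver 122, 77, 121 and 6 of 326.

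The strands of 1 region were compared between liver and lung. In 278 regions both strands had a probe that was detected on all D0 arrays of some tissue, and the brightest such probe stood for each strand. The sign of the liver minus lung difference was the same on both strands in 167 regions and opposite in 111. Both strands were called in the same direction in 38 regions and in opposite directions in 19, 1 strand alone in 132 and neither in 89. Across these regions, which share libraries and are not independent, Pearson's r was 0.09 and Spearman's rho 0.14.

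The 3 regions with the widest gap had 1 strand high in 1 tissue. At chr4:135896689-135918414, the reverse probe A_30_P01024647 gave 4.53, 5.21, 4.11, 4.33 and 5.13 in liver and was not well above background on any D0 array of lung or forestomach. The forward probe A_30_P01030176 was highest in lung (2.06 ± 0.26), then liver (1.22 ± 0.21). At chr3:146629425-146649125, the forward probe A_30_P01031208 was 2.45 ± 0.23 in lung, 1.36 ± 0.43 in forestomach and -1.63 ± 0.18 in liver. The reverse probe A_30_P01029004 was detected on all 5 liver arrays, at 1.00 ± 0.20, and on no D0 array of the other tissues. At chr13:108548345-108679004, the forward probe A_30_P01025700 was 4.29 ± 0.39 in liver, 0.12 ± 0.12 in lung and 0.02 ± 0.17 in forestomach. The reverse probe A_30_P01023760 was detected on all D0 arrays. It was low in liver and lung (-1.61 ± 0.08 and -1.23 ± 0.08) and stood at -0.12 ± 0.45 in forestomach. Each value is a mean ± SD of 5 mice.

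**Figure D3:**
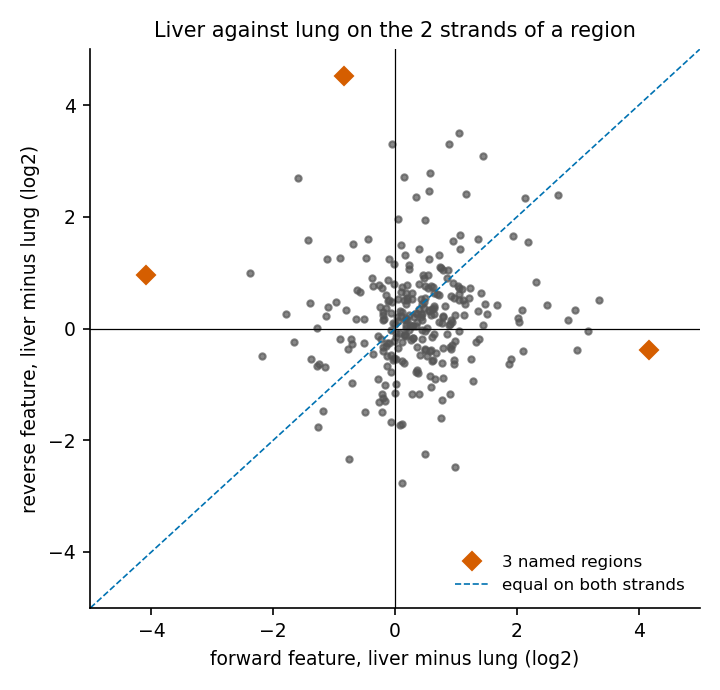
Liver minus lung difference (log2) of the forward probe against that of the reverse probe in 278 regions with detected probes on both strands, vehicle mice. Points scatter around both axes rather than along the dashed line of equal differences (Pearson's r 0.09), and diamonds mark the 3 named regions.

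Few region probes differed between dosed and vehicle mice. In liver, 0 of 3803 region probes tested passed both limits at any dose, as did 0% of all 24692 probes. Region probes with an unadjusted p of at most 0.05 numbered 158 at D1, 130 at D2 and 177 at D3 (4.15%, 3.42% and 4.65%, against 3.61%, 3.79% and 4.79% of all probes). The smallest adjusted p of a region probe at D3 was 0.96. An Fs test written here, which permutes arrays where the study's methods shuffle residuals, also called 0 at each dose. With the array column as a covariate, 6 region probes were called at D2 and 6 at D3, all lower, beside 19 and 23 of all probes. In forestomach, 0 of 4210 region probes passed at any dose, against 0% of 27491 probes at D1 and D2 and 0.00728% at D3. At D1, D2 and D3, 102, 211 and 205 region probes had an unadjusted p of at most 0.05 (2.42%, 5.01% and 4.87%, against 4.16%, 7.53% and 9.24% of all). The Fs test called 0, 0 and 1 in that order.

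At D3, the region probes closest to the limit in forestomach came from a single region. The 3 region probes with the smallest p at D3 all read the forward strand of chr8:119732348-119749198, a stretch of 16851 bases with 10 forward and 10 reverse probes. A_30_P01017507 stood at 0.75, 0.61, 0.59, 0.48 and 0.97 in D0 and at 1.05, 1.19, 0.83, 0.74 and 1.16 in D1. In D2 it gave 1.07, 1.17, 1.19 and 1.03, and in D3 1.41, 1.49, 1.42, 1.14 and 1.35. Every D3 mouse lay above every D0 mouse, and the means were ordered by dose. The D3 minus D0 difference was 0.68 ± 0.11 (SE) with an adjusted p of 0.072 by limma, which misses the threshold. The 3 probes were chosen by this same contrast, which favours separation of D3 from D0. The share of all forestomach probes separated in this way was not counted.

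A_30_P01025839 gave 0.20, 0.18, 0.15, 0.01 and 0.46 in D0 and 0.80, 1.39, 0.88, 0.73 and 1.21 in D3. Its D0 and D3 values did not overlap, which its choice by this contrast favours. Its D1 and D2 means of 0.78 and 0.87 lay between those of D0 and D3. The D3 difference was 0.80 ± 0.14 (SE, adjusted p 0.072). A_30_P01028695 averaged 0.56 ± 0.21 in D0, 0.96 ± 0.22 in D1, 0.86 ± 0.09 in D2 and 1.16 ± 0.21 in D3 (SD, n = 5, 5, 4 and 5), a difference of 0.61 ± 0.13 (SE, adjusted p 0.14), and its lowest D3 mouse, at 0.85, lay below the highest D0 mouse, at 0.87. All 3 probes were detected on all 19 forestomach arrays in both channels. Their Cy5 signal moved, by 0.57, 0.80 and 0.57 on the log2 scale, while the Cy3 reference differed by -0.09, 0.02 and -0.02.

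Of the other 7 forward probes of the region, all but A_30_P01026866 were above 0, as were 49.7% of all forestomach probes tested. At 0.25 or above were 5 of the 7, where the 95th percentile of the region probes tested was 0.34. D3 minus D0 was 0.67 for A_30_P01021814, 0.60 for A_30_P01017746, 0.50 for A_30_P01018462, 0.39 for A_30_P01021751 and 0.25 for A_30_P01019255. The remaining pair, A_30_P01022396 and A_30_P01026866, were at 0.08 and -0.01 and were detected on 9 and 6 of 19 arrays. On the reverse strand, 2 of 10 probes were detected often enough to be tested, and they differed by 0.03 and -0.08. In lung and liver, A_30_P01017507 differed by -0.05 and -0.0018 between D3 and D0, and A_30_P01025839 by -0.09 and 0.04. With dose as a linear term, A_30_P01017507 was the 1 region probe called in forestomach (fitted D0 to D3 change 0.65, adjusted p 0.031), beside 11 of all 27491 probes (0.040%). Within slides 1, 2 and 3 the D3 minus D0 difference of A_30_P01017507 was 0.70, 0.89 and 0.45. The array column mostly followed dose in forestomach, but D0 mouse 2 lay in column 4, where it gave 0.61 for A_30_P01017507 against 1.14 to 1.49 in D3 mice 16 to 19 of the same column. With the column as a linear covariate, the D3 difference was 0.74 for A_30_P01017507 and 0.87 for A_30_P01025839, both with an adjusted p of 0.30. Adding the glandular marker mean as a covariate, an alternative chosen after seeing the data, left it at 0.67 (adjusted p 0.024) and A_30_P01025839 at 0.81 (adjusted p 0.025).

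**Figure D4:**
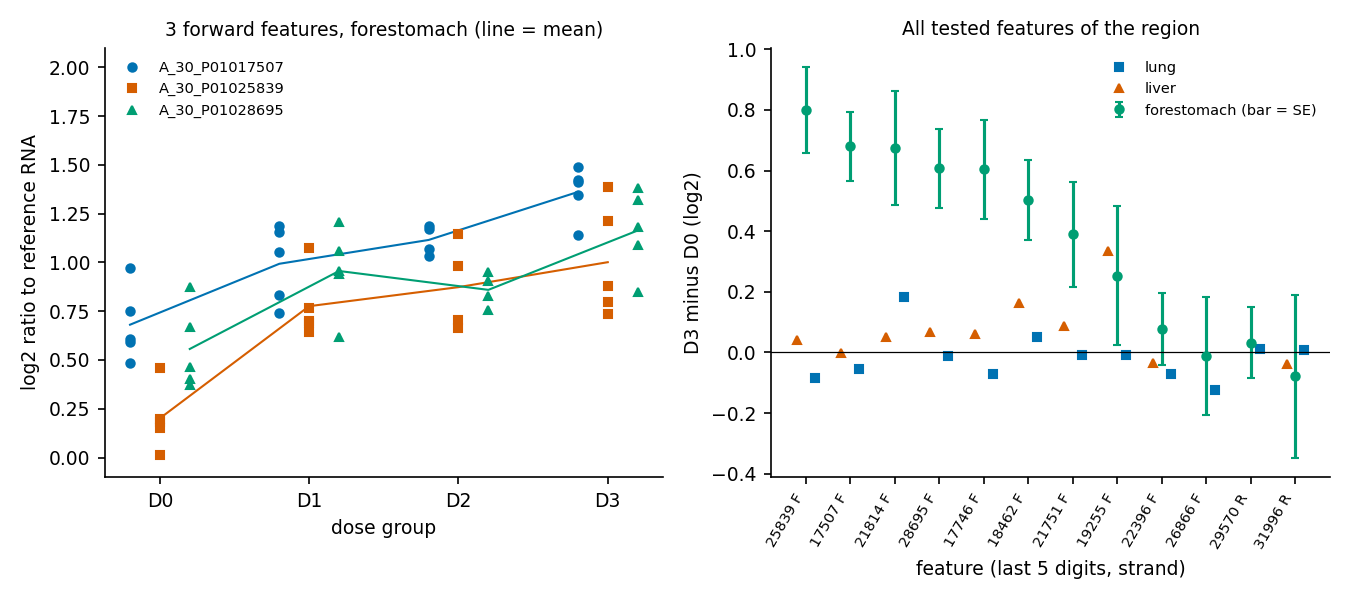
Left, log2 ratio of 3 forward probes of 1 region on chromosome 8 by dose group in forestomach; points are mice and lines join group means. Right, D3 minus D0 difference (log2) of each tested probe of the region, with SE for forestomach; 8 of 10 forward probes lie at 0.25 or above in forestomach, and the reverse probes at 0.03 and -0.08, with 0.34 for A_30_P01019255 in liver the highest value of another tissue.

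The 3 liver probes with the smallest p at D3 are given as values. A_30_P01032833 (chr2:72818943-72826893, reverse) went from 0.28 ± 0.12 in D0 to 0.58 ± 0.09 in D3 (SD, n = 5 each). A_30_P01032549 (chr17:71242333-71273533, forward) went from 3.87 ± 0.14 to 4.20 ± 0.12, and A_30_P01031578 (chr6:5311375-5328075, forward) from 1.98 ± 0.34 to 1.35 ± 0.12. The adjusted p was 0.96 for all 3.

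In lung, 13 of 5853 region probes tested (0.222%) were called at D3, against 0.127% of all 31448 probes. All 13 were lower than in D0, as were 38 of the 40 calls over the whole array. At D1 and D2, 0 were called, as were 0% of all probes. Region probes with an unadjusted p of at most 0.05 numbered 396 at D1, 425 at D2 and 777 at D3 (6.77%, 7.26% and 13.3%, against 5.88%, 6.12% and 16.2% of all probes). At D3, 578 of the 777 were lower and 199 higher. The Fs test, here with arrays permuted, called 0, 0 and 15 region probes at D1, D2 and D3, the last among 62 of all probes. The 13 probes lie in 13 regions on 9 chromosomes, and 9 are forward. With dose as a linear term, 14 region probes were called, all lower, 11 of them among the 13, beside 53 of all probes (0.169%).

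The lead probe, A_30_P01017999 (chr6:90745692-90777977, reverse), gave 0.07, -0.04, -0.22, 0.01 and -0.01 in D0 and -0.18, -0.26, -0.48, -0.40 and -0.51 in D1. It gave -0.45, -0.49 and -0.42 in D2 and -0.39, -0.77, -0.57, -0.80 and -0.69 in D3. Every D3 mouse lay below every D0 mouse, and the D1 mean (-0.36) already lay below every D0 mouse. The D3 change was -0.61 ± 0.09 (SE, adjusted p 0.016). A_30_P01025536 (chr11:97505439-97522274, forward) gave 0.55, 0.51, 0.53, 0.81 and 0.71 in D0 and 0.13, -0.17, -0.07, -0.14 and 0.01 in D3, a change of -0.67 ± 0.10 (adjusted p 0.016). It was the only one of the 13 in which each dosed mouse was lower than each vehicle mouse.

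A_30_P01032670 (chr5:22801058-22939737, forward) fell by more, from 0.81, 0.52, 0.29, 1.02 and 0.53 in D0 to -0.03, -0.22, -0.01, -0.21 and -0.32 in D3 (change -0.79 ± 0.13, adjusted p 0.016). The other 7 of the 10 with the smallest p were A_30_P01028970 (chr3:41143423-41359623, forward), A_30_P01022343 (chr7:86651948-86675223, forward), A_30_P01024297 (chr6:121035216-121035648, reverse), A_30_P01018146 (chr6:145647711-145756861, forward), A_30_P01028277 (chr14:115423660-115463160, forward), A_30_P01032942 (chr4:94742359-94822969, forward) and A_30_P01026230 (chr2:31714946-31716972, forward). Their D3 changes ran from -0.61 to -0.76 with adjusted p from 0.016 to 0.023. The last 3 called, named outside the rule that took 10, were A_30_P01020476 (chrX:18744367-18853992, forward), A_30_P01032068 (chrX:50400250-50410825, reverse) and A_30_P01028666 (chr3:30100736-30101280, reverse), at -0.65, -0.93 and -0.62 with adjusted p from 0.044 to 0.048. In 12 of the 13, all D3 mice lay below all D0 mice, as in 34 of all 40 calls and in 1.94% of all probes tested; the choice of these probes by the same contrast favours such separation. The exception was A_30_P01032068, where D3 ran from -1.25 to -0.07 and D0 from -0.07 to 0.60.

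All 13 were detected in Cy5 on all 18 lung arrays, and their Cy5 signal differed by -0.42 to -0.86 on the log2 scale, against -0.19 to 0.30 in the Cy3 reference. A fit on Cy5 alone called 7 region probes, 4 of them among the 13, and 17 of all probes, and a fit on Cy3 alone called 0 of all probes. Their region-mates had by construction not passed the limits. Of 27 tested region-mates, 22 were lower and 5 higher with a median of -0.07, where 57.5% of all lung probes tested were lower with a median of -0.03, and the lowest was A_30_P01021991 at -0.50, a region-mate of A_30_P01028277.

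The position of the array on the slide moved with dose in lung. Column 1 held the D0 arrays and no others, all D1 arrays lay in column 2 and all D2 and D3 arrays in columns 3 and 4, so vehicle and column 1 cannot be told apart. With column as a linear covariate, 0 region probes were called, and the 13 changes shrank to between -0.25 and 0.09, with A_30_P01024297, A_30_P01028277 and A_30_P01020476 above 0 (0.064, 0.076 and 0.093). Within D3, the median of the 13 deviations from the D0 mean was -0.49 in mouse 16, the only one in column 3, and -0.80, -0.59, -0.84 and -0.68 in mice 17 to 20 in column 4. In D2, mouse 12 in column 4 stood at -0.59 and mice 13 and 15 in column 3 at -0.54 and -0.36. In both dose groups the column 4 medians were below those of column 3, with 1 array in one of the columns each time and no test.

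In the other tissues 1 D0 array of each lay in column 4. It lay on slide 3, as did 1 of the 4 D0 arrays of column 1, so that slide and column are mixed in this difference. In liver, that array differed from the D0 arrays of column 1 by -0.35 to 0.36 for the 13 probes, with 10 above 0. In forestomach it differed by -1.16 to 1.29, with 10 below 0. The D3 change of these probes was -0.26 to 0.01 in liver (12 tested) and -0.40 to 0.49 in forestomach. The count in lung also depended on single mice: leaving out D0 mouse 1 or D3 mouse 19 left 0 called, D0 mouse 4 left 2, D3 mouse 17 left 3 and D0 mouse 5 left 6 (0, 1, 8, 10 and 16 over all probes), whereas leaving out D0 mouse 3 gave 22 (67 over all probes) and D3 mouse 16 gave 26 (143 over all probes). Without mice 17 and 19, the pair with muscle and squamous markers, 0 were called, of region probes and of all probes. The medians of the 13 probes given above were -0.80 and -0.84 in this pair and -0.49, -0.59 and -0.68 in the other 3 D3 mice, and the pair's part in the result was not tested. Centring each array on its median called 0 as well.

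**Figure D5:**
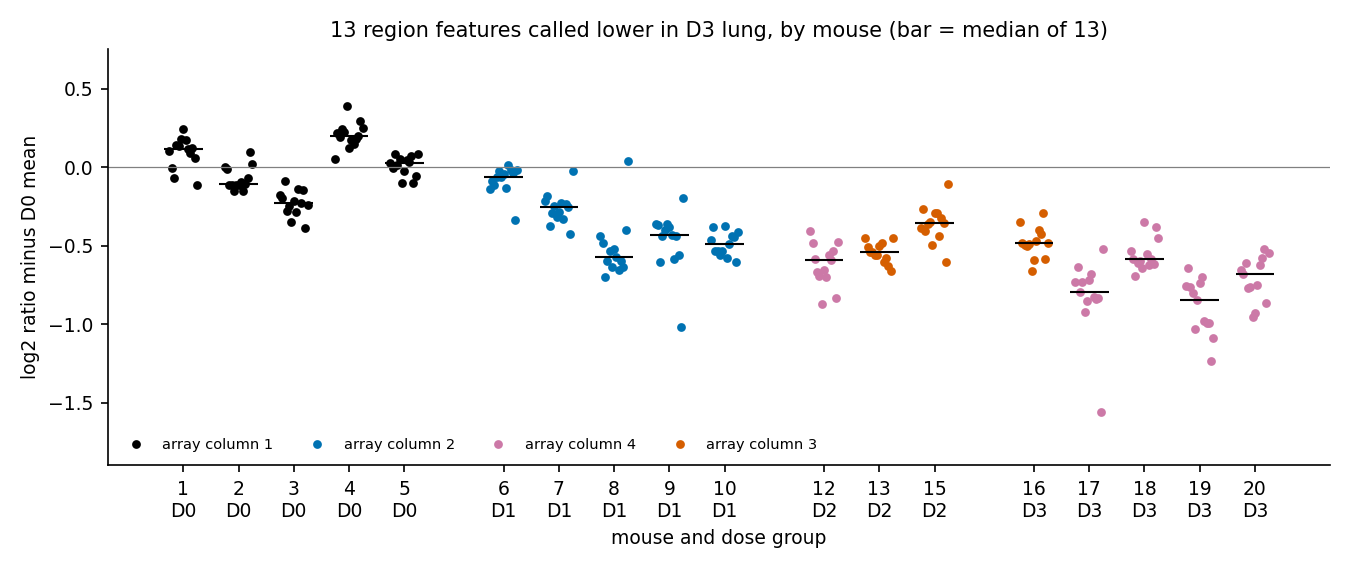
Log2 ratio minus the D0 mean of the 13 region probes called lower in D3 lung, for each of 18 mice ordered by dose group; points are probes, bars their medians and colours the array column on the slide. Medians fall from between -0.23 and 0.20 in D0 to between -0.84 and -0.49 in D3, and columns follow dose.

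The reference RNA was the same on every array, which makes its Cy3 signal a check on the array column. This test was added after the data were seen. Over the 56 arrays, with slides as terms, columns 1 and 2 differed from the others in 0% of the 35882 probes tested, column 3 in 0.0251% and column 4 in 0.039%. Among 8154 region probes, 4 were called for column 3 and 3 for column 4, and 0 for columns 1 and 2. Region probes with an unadjusted p of at most 0.05 numbered 1133, 676, 716 and 1605 for columns 1 to 4 (13.9%, 8.29%, 8.78% and 19.7%, against 14.4%, 8.57%, 10.2% and 19.0% of all probes). In column 3, A_30_P01021428 (+1.35 on the log2 scale), A_30_P01028020 (+1.07) and A_30_P01018146 (+1.03) were brighter and A_30_P01032549 (-0.60) was dimmer. In column 4, A_30_P01018039, A_30_P01029584 and A_30_P01027463 were brighter by 1.24, 1.20 and 0.77. A_30_P01018146 is 1 of the 13 lung calls, and A_30_P01032549 is 1 of the 3 liver probes given above. The Cy3 signal by dose, fitted within each tissue, called 0 region probes in all contrasts but forestomach D2, where it called 2, beside 6 of all probes.

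A_30_P01021428 (chr1:63264155-63345773, forward) had a dose contrast that moved with the column. In forestomach it gave -0.49, -0.24, -0.59, -0.12 and -0.61 in D0, between -0.57 and -0.32 in D1, and -1.98, -1.64, -1.60 and -1.47 in D2. In D3, 4 mice ran from -0.61 to -0.29 and mouse 20 stood at -1.53. All D2 arrays and that of mouse 20 lay in column 3, and no other forestomach array did. The D2 change was -1.26 ± 0.19 (SE, adjusted p 0.11), and -1.40 with an adjusted p of 0.027 when the ratios were recomputed from the scanner signals. Both channels were higher in D2, by 1.23 in Cy5 and by 2.62 in Cy3. In the 5 column 3 arrays of forestomach the Cy3 log2 signal ran from 7.80 to 10.5, against 6.55 to 7.56 in the other 14. In liver the column 3 arrays ran from 7.75 to 11.6 and the others from 7.57 to 8.21, whereas in lung they ran from 6.19 to 6.34 and the others from 6.20 to 6.60.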

How the data were processed

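RNA was measured on 56 two-colour Agilent arrays of mouse lung, liver and forestomach. The scanner files hold, per the file headers, median spot and background intensity from Feature Extraction 10.7.3.1, and other flags of 0 or 1 for detection and spot quality. The authors deposited log2 ratios of Cy5 over Cy3, made by LOWESS of median signals without background subtraction, which correlated with ratios recomputed here at 0.977 to 0.998. Direction follows the dyes in the labels.

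Dose tests used limma 3.58.1 (R 4.3.3) per tissue on probes detected in Cy5 on at least 3 arrays of the tissue. Tissue tests used limma on the D0 arrays, with probes detected on at least 3 D0 arrays of either tissue. Probes were uniform on all arrays of the fit, and Benjamini-Hochberg adjustment was over all probes tested. Shares of detected probes were compared by a permutation test (scipy 1.17.1). Simulated data for lung D3 gave back 87% and 99% of changes of 1 and 2 on the log2 scale. Named probes were the 4 leading per tissue, up to 10 calls per dose contrast (else the 3 smallest p at D3), the 3 widest strand gaps and A_30_P01021428. Members and lists were chosen with earlier results of these data known. Mouse numbers pair tissues because the 5 D0 mice each gave all 3 (mouse 11 of D2 has no lung array here); their same-mouse deviations correlated at -0.15 to 0.28.

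Alternatives covered normalization, filters, slide, column, weights, an Fs test (100 permutations of arrays, not the study's residual shuffling) and left-out mice. P-values measure the spread between mice of 1 experiment.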

Additional observations from a re-analysis of the deposited data

Results flagged for a closer look

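Over 75 groups of mice tested for a single distant value, 2 had one, and chance alone gives about 1 group in 20. For A_30_P01028666 in D3 lung, mouse 19 lay far below the others at a log2 ratio of 1.29, with the next lowest at 1.83. In D1 lung, mouse 10 had 28.6% of region probes well above background, with the next lowest at 32.1%.

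The D3 change differed between tissues for 5 probes, by limma on the difference itself. These probes were chosen by the D3 contrast of 1 of the tissues, so the tests are not independent of the choice. Over the whole array, 298 of 32512 probes (0.917%) passed for lung against forestomach, 24 of 29588 (0.0811%) for forestomach against liver and 0 of 32647 for lung against liver. In lung minus forestomach, A_30_P01032670 differed by -1.28 (adjusted p 0.0028) and A_30_P01018146 by -0.76 (adjusted p 0.018), while the other 11 of the 13 lung probes did not pass (adjusted p 0.13 to 0.77). In lung minus liver, 0 of the 13 passed (lowest adjusted p 0.68, with 5 at an unadjusted p under 0.05). In forestomach minus lung, A_30_P01017507 differed by 0.73 (adjusted p 0.010), A_30_P01025839 by 0.88 (adjusted p 0.0016) and A_30_P01028695 by 0.62 (adjusted p 0.046). In forestomach minus liver, A_30_P01017507 differed by 0.68 (adjusted p 0.042) and A_30_P01025839 by 0.76 (adjusted p 0.031), while A_30_P01028695 differed by 0.54 without passing (adjusted p 0.16).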

How the results depend on the processing

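Most results kept their direction and their side of the threshold, and those that did not are given here; the cause was not tested. The 13 region probes called in D3 lung became 7 with ratios recomputed by loess, 7 with normexp background correction, 7 with array weights, 8 with slide as a block (14, 14, 15 and 20 of all probes, from 40), and 0 with median centring, with array column as a covariate or without mice 17 and 19; leaving out 1 mouse gave 0 to 26. With the column covariate the change turned for A_30_P01024297 (0.064), A_30_P01028277 (0.076) and A_30_P01020476 (0.093). In forestomach D2, where 0 were called, recomputed loess gave 1, normexp 1 and array weights 4 (1, 1 and 57 of all probes). In forestomach D3, also 0, probes detected on every array gave 2, slide as a block 1, array weights 7, the Fs test 1 and the glandular marker covariate, added after seeing the data, 7 (14, 13, 137, 5 and 104 of all probes); leaving out 1 mouse gave 0 to 1. In liver, the column covariate gave 6 at D2 and 6 at D3, all lower (19 and 23 of all 24692 probes). Median centring gave 1958 calls for lung against forestomach (1275 otherwise) and 387 for forestomach against liver (1051 otherwise), beside 16857 (11567 otherwise) and 4182 (11117 otherwise) over all probes. Leaving out 1 mouse gave 1686 to 1750 calls for liver against lung, 1229 to 1343 for lung against forestomach and 975 to 1095 for forestomach against liver. With the mouse as a replicate block, the tissue comparisons gave 1718, 1273 and 1053 calls in place of 1716, 1275 and 1051, and the block moved no named probe across the threshold.

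On the 5 D0 arrays alone, region minus other probes was -30.8 points in lung, -29.6 in liver and -27.6 in forestomach, and forward minus reverse -5.66, -0.99 and -1.35. An exact permutation test over 5 arrays cannot go below p = 0.0625, which was reached in all of these but the last (p = 0.5). The number of arrays limits the precision, and most region probes lay near background, where ratios shrink toward 0.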
